A study of Capra hircus with 4 samples.

Results

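Transcripts of the beta-2 adrenergic receptor and protein kinase A (PKA) pathway were examined in the longissimus dorsi, a back muscle made mostly of skeletal muscle fibres, of 2-month-old Cashmere goats. The 9 genes followed were GNAS, PRKACA, PRKACB, PRKAR1A, PRKAR2A, PRKAR2B, CREB1, ARRB1 and ARRB2, and a gene was taken as present when a unigene, an assembled transcript cluster of the study, carried its name in the table that pairs unigenes with goat genes. By this rule 8 of the 9 genes were found, on 13 of 59774 unigenes and among 11208 named goat genes. The name GNAS was not in the pairing table, although its protein was paired under another name, as described further on. The receptor itself was not analysed here.

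RNA was sequenced from 1 control library, from goats without drug, and from 3 treated libraries, from goats given ractopamine, a beta-agonist feed additive. Ractopamine was given by mouth at 1 mg/kg. The labels give each treated library the whole course of 28 dosing days followed by 21 withdrawal days. The labels call the treated libraries replicates 1, 2 and 3, whereas the methods of the study describe sequencing at a dosing day and at a pair of withdrawal days. No library was tied to a day in the labels used here, so each treated library was set against the control by its number and time could not be told apart from the animal. The labels do not state how many animals each library held.

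When a beta-agonist binds the beta-2 adrenergic receptor, the stimulatory G protein, whose alpha subunit is encoded by GNAS, turns on adenylyl cyclase and cyclic AMP is made. Cyclic AMP binds the regulatory subunits of PKA (PRKAR1A, PRKAR2A, PRKAR2B) and frees the catalytic subunits (PRKACA, PRKACB), which phosphorylate metabolic and contractile proteins and the transcription factor CREB1. Beta-arrestins (ARRB1, ARRB2) bind the phosphorylated receptor and end the signal. In skeletal muscle this route is known for glycogen breakdown and for growth of the fibres under beta-agonists.

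The assembled sequences carry the sites by which these proteins act on each other, and they are shown to make clear what the counts stand for. In the regulatory subunits, PKA binds an inhibitory site, which is a pseudosubstrate in PRKAR1A and is phosphorylated in PRKAR2A, and in CREB1 the corresponding stretch is the site that PKA phosphorylates. The 4 codons of each site are in capitals in the lines below, which are read 5′ to 3′ from unigene c13077_g1 (bases 400 to 459), c13216_g1 (bases 4687 to 4746) and c22545_g1 (bases 487 to 546), counted from 1 at the start of the unigene.
PRKAR1A: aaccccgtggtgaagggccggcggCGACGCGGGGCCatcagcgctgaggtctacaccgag
PRKAR2A: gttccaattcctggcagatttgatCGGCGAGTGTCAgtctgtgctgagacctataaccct
CREB1: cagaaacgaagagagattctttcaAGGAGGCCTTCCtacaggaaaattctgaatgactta

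The pair of catalytic subunits has an activation loop whose threonine is phosphorylated in the active kinase, and the codon of that threonine is in capitals below. The stretches come from unigene c13736_g9 (bases 790 to 855) and unigene c3295_g1 (bases 422 to 487).
PRKACA: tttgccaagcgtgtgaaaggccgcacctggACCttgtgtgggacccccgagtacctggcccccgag
PRKACB: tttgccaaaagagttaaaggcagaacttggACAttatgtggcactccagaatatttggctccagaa
Of these 66 bases, 48 are the same and 18 differ. Over the aligned parts, the PRKACA unigene and the PRKACB unigenes were 73.9% and 78.5% identical, with no exact run longer than 14 bases. The PRKAR2A and PRKAR2B unigenes were 73.7% identical, and the ARRB1 unigene was 80.4% and 77.4% identical to the ARRB2 unigenes.

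The libraries held 6675218 to 8533046 expected counts (estimated read counts per unigene), but the share that fell on named goat genes differed widely. It was 71.3% in the control library, 50.1% in treated library 1, 1.82% in the second and 40.4% in the third. Paired unigenes without a gene name, which encode mitochondrial proteins, took 22.2%, 37.5%, 84.3% and 49.7% of all counts in the same order. Each member was therefore given with 2 divisors, the counts of the whole library and the counts of named goat genes, and levels are given in CPM, counts per 1000000 counts of named goat genes. Treated library 2 held only 133809 counts on named goat genes, so that a count of 0 allows up to 22.4 CPM there, against 0.493 in the control library. Of 16 skeletal muscle markers 11 were in the pairing table, and their summed level was 144800, 165818, 127951 and 220168 CPM in the control library and treated libraries 1 to 3. Of 8 fibroblast markers 6 were present at a summed 124, 176, 2429 and 285 CPM, and of 8 adipocyte markers 5 were present at 204, 333, 1128 and 157. Of 10 myeloid markers 6 were present at 3.45 to 11.3, the B and plasma cell list had none of its 8 genes in the table, 2 of 8 red blood cell markers were present at 4.44 to 14.9, and 9 of 10 endothelial and smooth muscle markers were present at 25032 to 55885, a sum led by ACTA2, which is close in sequence to the muscle actin ACTA1. The part of these cell types in the results was not tested, and in bulk tissue fewer cells of a type and less RNA per cell cannot be told apart.

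A gene was called lower or higher in a treated library when its ratio to the control library was below 0.6 or above 3, the limits of the study, and the exact 95% Clopper-Pearson interval of the ratio excluded 1. Such intervals compare a pair of libraries and cover counting error only. Relative to named goat-gene counts, 4 of the 8 members were lower in treated library 1 (PRKACA, PRKACB, PRKAR2A and ARRB2), where 33.6% of the 9470 goat genes tested were lower and 5.52% were higher. In treated library 2, 2 members were lower (PRKACA and PRKAR2A), beside 11.3% lower and 7.41% higher of all genes. In treated library 3 the same 2 genes were lower and PRKAR2B was higher, beside 31.0% lower and 2.64% higher of all genes. PRKACA and PRKAR2A were among the 2126 goat genes with at least 300 control counts. Of those genes, 41.0%, 42.8% and 39.5% were lower and 2.40%, 4.47% and 0.611% were higher in treated libraries 1, 2 and 3. The median ratio over the 8 members was 0.354, 0.153 and 0.741 in the 3 treated libraries, where the median over all genes tested was 0.737, 0.551 and 0.712. In treated library 2, 4 of the 8 members and 2912 of the 9470 genes had 0 counts and entered these medians as 0. With counts of 0 set to the floor of 3 counts, the median there was 5.13 over the members and 1.56 over all genes, so neither median is a measured level in that library. The members' median in treated library 1, where ARRB2 had 0 counts, was 0.402 with the floor. The 8 members all reached the minimum of 10 counts over the 4 libraries, PRKAR2B with exactly 10, of which 7 were in treated library 3, where it was called.

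Relative to all counts, 7, 7 and 4 members were lower and 0, 0 and 1 were higher. All goat genes were lower in 52.2%, 94.6% and 65.1% of cases and higher in 2.93%, 0.0739% and 0.729% of cases by this divisor, and their median ratio was 0.518, 0.0141 and 0.404. Most genes thus passed the lower limit by this divisor, and in treated library 2 nearly all of them did. The results that follow are given on named goat-gene counts unless stated.

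**Figure D1:**
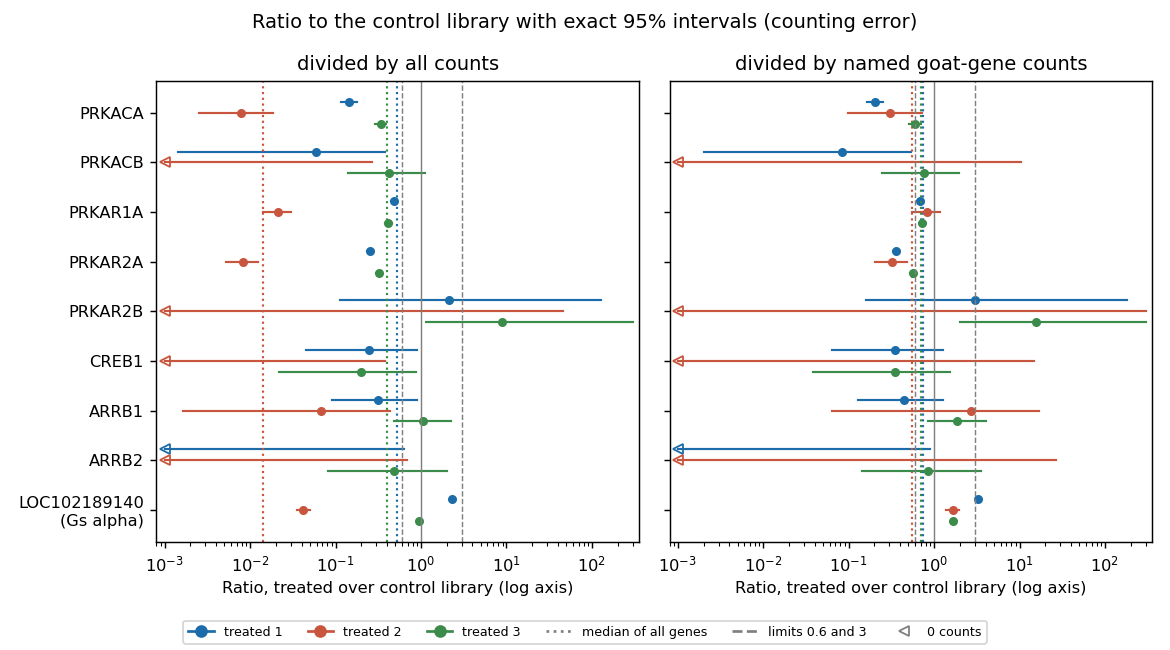
Ratio of each treated library to the control library for the 8 members and for the Gs alpha gene LOC102189140, divided by all counts (left) and by named goat-gene counts (right), on log axes. Points are ratios, bars are exact 95% intervals for counting error drawn within the plotted range, open triangles mark 0 counts, dotted lines the median of all genes tested and dashed lines the limits of 0.6 and 3. PRKACA and PRKAR2A sit below 0.6 in all 3 treated libraries on both divisors, PRKAR1A lies between 0.686 and 0.825 on the right, and the genes with few counts have wide bars.

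PRKACA, the main catalytic subunit gene of these libraries, was lower in all 3 treated libraries on its coding unigene. Its control count was 745, and treated libraries 1, 2 and 3 held 100, 5 and 196 counts, or 122 CPM against 25.1, 37.4 and 72.7. The control library was the highest of the 4 and treated library 1 the lowest. The ratio to control was 0.205 (95% interval 0.164 to 0.253) for treated library 1, 0.305 (0.0988 to 0.716) for the second and 0.594 (0.505 to 0.696) for the third. The mean log2 ratio was -1.58 ± 0.78 (SD, n = 3). This SD, like those of the other members, is over 3 ratios that share 1 control library. It holds no spread among controls, and it includes the counting error of treated library 2. The value of treated library 3 lay just inside the limit of 0.6, and its interval spanned that limit. With TMM library sizes, which set the bulk of genes equal between libraries, it was 0.758 and not called, whereas the ratios of treated libraries 1 and 2 were 0.256 and 0.300 and were called.

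The coding unigene was not the only PRKACA transcript piece in the assembly. A further unigene, c13736_g1, of 1031 bases, had its best nucleotide match to PRKACA, had no goat protein match and was therefore not in the pairing table. Its last 30 bases (bases 1002 to 1031) are shown because they hold a polyadenylation signal, in capitals, followed by a run of A, so the piece is called the 3′ unigene here.
PRKACA 3′ unigene: tattatcAATAAAgttttgtttaaaaaaaa
Here the control count was 311, and treated libraries 1, 2 and 3 held 340, 9 and 249 counts, or 51.1 CPM against 85.2, 67.3 and 92.3. Its ratio to control was 1.67 (1.43 to 1.95), 1.32 (0.596 to 2.53) and 1.81 (1.52 to 2.14), above 1 where the coding unigene was below it, although no ratio passed the limit of 3. By all counts the 3′ unigene had ratios of 1.17 (1.00 to 1.37), 0.0336 (0.0152 to 0.0647) and 1.02 (0.863 to 1.21).

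Within a library, the ratio of 3′ to coding counts needs no divisor. It was 0.417 (0.365 to 0.477) in the control library, 3.40 (2.71 to 4.29) in treated library 1, 1.80 (0.542 to 6.84) in the second and 1.27 (1.05 to 1.54) in the third. The intervals of the 3 treated libraries do not overlap that of the control library. When the pair of PRKACA unigenes was summed, the counts were 1056, 440, 14 and 445 and the ratios to control were 0.635 (0.567 to 0.711), 0.603 (0.329 to 1.02) and 0.951 (0.849 to 1.06), so that PRKACA was called in no library. This sum was chosen after the data were seen. With such unigenes added for every gene, 27.0%, 11.5% and 27.8% of all goat genes were lower and 6.01%, 8.15% and 2.76% were higher, and 3, 1 and 1 members were lower and 0, 1 and 1 were higher.

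The shift between pieces of a transcript was not particular to PRKACA. Over 227 goat genes with at least 100 control counts both on paired unigenes and on unigenes matched by nucleotide sequence only, the ratio of the latter to the former was higher than in the control library for 91.6%, 74.9% and 86.3% of genes in treated libraries 1, 2 and 3. The median change of that ratio was 5.14-fold, 1.92-fold and 2.67-fold, and that of PRKACA was 8.11-fold, 4.13-fold and 3.04-fold with 0.5 counts added to each term. The same assembly cluster also held unigenes paired with PDE4C, PDE4D, AKT2 and STAC3, so the cluster number itself does not define a gene.

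**Figure D2:**
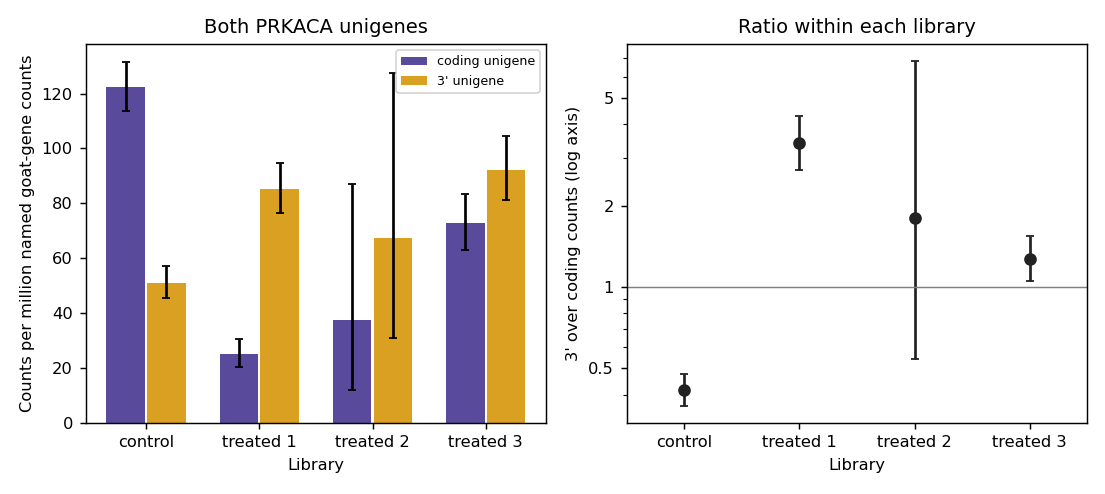
Left: counts per 1000000 named goat-gene counts (CPM) of the coding and the 3′ unigene of PRKACA in the 4 libraries, with exact 95% Poisson intervals. Right: ratio of 3′ to coding counts within each library on a log axis, with exact 95% intervals. The coding unigene is the taller bar in the control library and the shorter one in the 3 treated libraries, and the ratio moves from 0.417 to between 1.27 and 3.40.

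PRKACB, the other catalytic subunit gene, was rare. Its 2 unigenes had a control count of 18, and the treated libraries held 1, 0 and 6 counts. The ratio was 0.0847 (0.00203 to 0.537) in treated library 1 and 0.752 (0.244 to 1.98) in treated library 3, so it was lower in the former only. At the depth of treated library 2, a level such as the 2.96 CPM of the control library was not detectable.

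On named goat-gene counts, the type I regulatory subunit gene PRKAR1A was called in no treated library. Its counts were 1655, 744, 30 and 536, or 272 CPM in the control library against 186, 224 and 199 in treated libraries 1, 2 and 3. All 3 treated libraries were below the control library. The ratios were 0.686 (0.628 to 0.748), 0.825 (0.554 to 1.18) and 0.731 (0.662 to 0.806), and the mean log2 ratio was -0.43 ± 0.14 (SD, n = 3). By all counts it was lower in all 3, at 0.482 (0.441 to 0.526), 0.0211 (0.0142 to 0.0302) and 0.414 (0.375 to 0.457). With the unnamed paired unigenes added to the divisor, which was chosen after the data were seen, it was also called lower in all 3, at 0.515, 0.0229 and 0.430. Among the 2126 goat genes with at least 300 control counts, the median ratio was 0.690, 0.541 and 0.695, so that PRKAR1A was at 0.993, 1.52 and 1.05 times that median, and 49.3%, 68.6% and 54.0% of these genes had a lower ratio. The 2 assembled PRKAR1A transcripts of unigene c13077_g1, of 3411 and 3457 bases, were counted nearly evenly, and the longer one took 53.8%, 51.1%, 43.3% and 53.3% of the counts of that unigene in the 4 libraries.

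The type II regulatory subunit gene PRKAR2A was lower in all 3 treated libraries. It was the member with most counts, 3255 in the control library, and treated libraries 1, 2 and 3 held 760, 23 and 824, or 535 CPM against 190, 172 and 305. The 3 treated libraries were all below the control library. The ratios were 0.356 (0.329 to 0.385), 0.321 (0.203 to 0.483) and 0.571 (0.528 to 0.617), with a mean log2 ratio of -1.31 ± 0.44 (SD, n = 3). As for PRKACA, the ratio of treated library 3 was just inside the limit, and with TMM library sizes it was 0.729 and not called. Against the median of the genes with at least 300 control counts, PRKAR2A was at 0.516, 0.594 and 0.821 times and the coding unigene of PRKACA at 0.297, 0.564 and 0.854 times. Of those genes, 14.7%, 29.6% and 35.3% had a lower ratio than PRKAR2A, and 4.99%, 27.9% and 38.5% had a lower ratio than PRKACA.

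The PRKAR2A value rests on a single unigene, c13216_g1, of 9361 bases, that holds more than PRKAR2A. Its coding frame of 401 codons for PRKAR2A lies at bases 4435 to 5637. A further frame of 238 codons lies on the opposite strand at bases 2985 to 3698, and the best nucleotide match of the unigene is UBE2R2, a ubiquitin-conjugating enzyme gene that is on another chromosome than PRKAR2A in the RefSeq annotation of assembly ARS1.2. Reads of these genes cannot be told apart in the counts of this unigene. Within the libraries, the count ratio of PRKAR1A to this unigene was 0.508 (0.479 to 0.540) in the control library and 0.979 (0.884 to 1.08), 1.30 (0.733 to 2.35) and 0.650 (0.582 to 0.726) in the treated libraries.

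**Figure D3:**
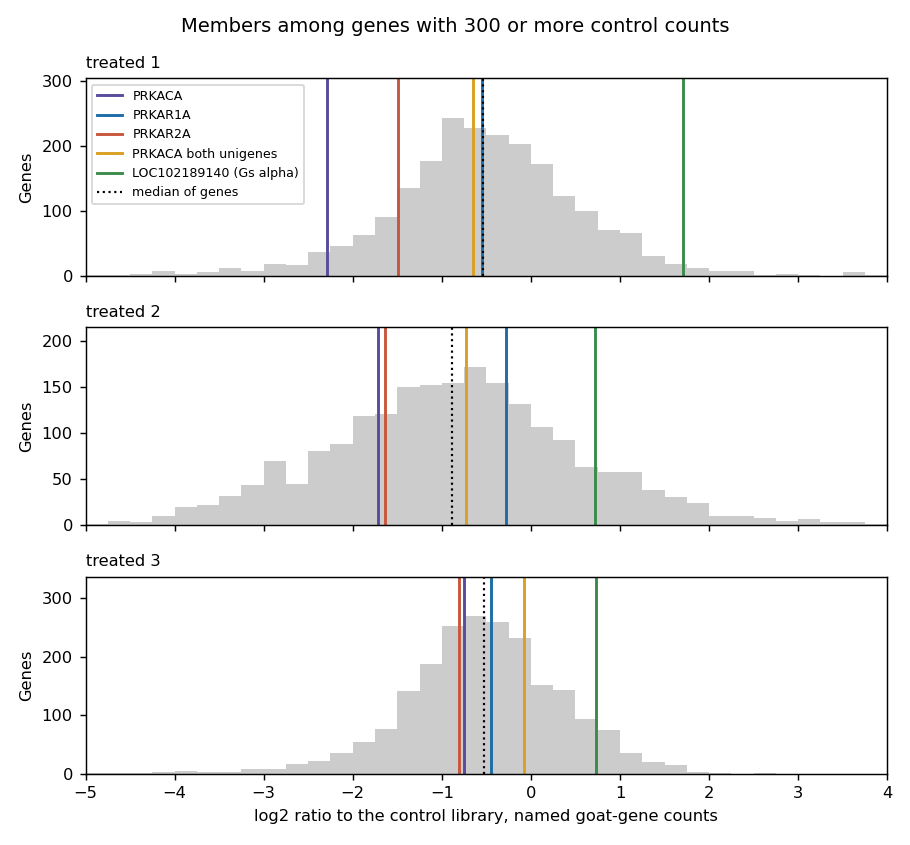
Number of goat genes by log2 ratio to the control library on named goat-gene counts, for the 2126 genes with 300 or more control counts, in treated libraries 1, 2 and 3 (genes at 0 counts left out). Vertical lines mark PRKACA on its coding unigene, PRKACA on both unigenes, PRKAR1A, PRKAR2A, the Gs alpha gene and the median. PRKACA on its coding unigene and PRKAR2A lie left of the median in each panel, PRKACA on both unigenes lies left of it in treated library 1 and right of it in treated libraries 2 and 3, the Gs alpha gene lies right of it, and PRKAR1A lies at or right of it.

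PRKAR2B, the type II regulatory subunit typical of fat and brain, was at the limit of detection, with a control count of 1 and counts of 2, 0 and 7 in the treated libraries. It was higher in treated library 3 at a ratio of 15.8 with an interval from 2.03 to 712, which rests on 7 counts against 1. The ratio of treated library 1 was 3.05 (0.159 to 180). The summed adipocyte markers were 157 CPM in treated library 3 and 204 in the control library, and their part in the result was not tested.

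CREB1, the transcription factor that PKA phosphorylates, had a control count of 13 and counts of 3, 0 and 2 in the treated libraries on 3 unigenes, 1 of which was never counted. The ratios of 0.352 (0.0643 to 1.28) and 0.347 (0.0380 to 1.53) in treated libraries 1 and 3 were not called. With all counts as divisor CREB1 was lower in all 3, at 0.247, at least 3.73-fold lower from a count of 0, and at 0.197. A further 5 unigenes outside the pairing table matched CREB1 by nucleotide sequence, with a control count of 31 and counts of 37, 1 and 15 under treatment. With these added, the ratios were 1.39 (0.880 to 2.18), 1.03 (0.0256 to 6.07) and 0.872 (0.467 to 1.56), and none was called. Within the libraries, the count ratio of these unigenes to those of the pairing table was 2.38 (1.21 to 4.97) in the control library, 12.3 (3.91 to 62.5) in treated library 1 and 7.50 (1.74 to 67.6) in treated library 3, with intervals that overlap.

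The beta-arrestin genes were rare as well. ARRB1 had 17, 5, 1 and 14 counts in the control library and treated libraries 1 to 3, and the ratios of 0.449 (0.129 to 1.27), 2.68 (0.0640 to 17.1) and 1.86 (0.848 to 4.005) were not called and went in both directions. ARRB2 had 8, 0, 0 and 3 counts. In treated library 1, its count of 0 put it at least 1.75-fold below the control library and it was called there. That call was lost with TMM library sizes, with DESeq2 size factors and with the longest unigene alone. The ratio of treated library 3 was 0.846 (0.145 to 3.53) and the depth of treated library 2 did not allow a comparison. The longer of the ARRB1 transcripts, of 1335 bases, took 10 of 17 counts in the control library and 9 of 14 in treated library 3.

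The alpha subunit of Gs, the product of GNAS, was paired in the goat table as LOC102189140, whose protein is named guanine nucleotide-binding protein G(s) subunit alpha isoforms short-like. It is no member by the rule and was chosen after its values were seen. Its control count was 3619 and the treated libraries held 7741, 131 and 2664 counts, or 595 CPM against 1940, 979 and 988. The 3 treated libraries were all above the control library. The ratio was 3.26 (3.14 to 3.39) in treated library 1, where it was called higher, and 1.65 (1.37 to 1.96) and 1.66 (1.58 to 1.75) in treated libraries 2 and 3, where it was not. When all counts were the divisor, the ratios were 2.29 (2.20 to 2.39), 0.0421 (0.0351 to 0.0501) and 0.941 (0.895 to 0.990), so that the direction depended on the divisor in treated libraries 2 and 3. Of the genes with at least 300 control counts, 98.1%, 87.3% and 92.4% had a lower ratio on named counts. Within the libraries, Gs alpha counts per count of PRKAR1A were 2.19 (2.06 to 2.32) in the control library and 10.4 (9.65 to 11.2), 4.37 (2.92 to 6.73) and 4.97 (4.53 to 5.46) in treated libraries 1, 2 and 3, and these intervals do not overlap that of the control library.

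In the control library and treated libraries 1 and 3 the members fell into an abundant and a rare set. In the control library the level in CPM per kilobase of unigene was 72.9 (67.7 to 78.3) for PRKACA, 71.4 (68.0 to 74.9) for PRKAR1A and 57.1 (55.2 to 59.1) for PRKAR2A, and it was between 0.191 and 2.09 for the other 5 genes. PRKACA and PRKAR1A did not differ beyond counting error there, and PRKAR2A was below them, although the length used for PRKAR2A includes the further frame of its unigene. In treated library 1 the order was PRKAR1A at 48.9 (45.5 to 52.6), PRKAR2A at 20.3 (18.9 to 21.8) and PRKACA at 14.9 (12.1 to 18.1), with no overlap of the intervals. In treated library 2 the levels were 58.9 (39.7 to 84.0) for PRKAR1A, 22.2 (7.22 to 51.9) for PRKACA and 18.4 (11.6 to 27.6) for PRKAR2A, and PRKACA overlapped both others. The interval of ARRB1 there, 5.60 (0.142 to 31.2), overlapped those of PRKACA and PRKAR2A, so that no split into an abundant and a rare set was shown. In treated library 3 the levels were 52.2 (47.8 to 56.8), 43.2 (37.4 to 49.7) and 32.6 (30.4 to 34.9) for PRKAR1A, PRKACA and PRKAR2A, of which the first pair overlapped. Among the rare members of the control library, ARRB1 at 2.09, PRKACB at 1.77, CREB1 at 1.68 and ARRB2 at 1.41 overlapped each other.

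The count ratio of PRKACA to PRKAR1A showed how much this order depends on the unigenes summed. On the coding unigene it was 0.450 (0.412 to 0.491) in the control library and 0.134 (0.108 to 0.166), 0.167 (0.0505 to 0.434) and 0.366 (0.309 to 0.431) in treated libraries 1 to 3. On both PRKACA unigenes it was 0.638 (0.590 to 0.690) in the control library and 0.591 (0.524 to 0.666), 0.467 (0.229 to 0.908) and 0.830 (0.731 to 0.943). On the coding unigene the interval of treated library 1 lay below that of the control library and those of treated libraries 2 and 3 overlapped it. On both unigenes the interval of treated library 3 lay above that of the control library and those of treated libraries 1 and 2 overlapped it.

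**Figure D4:**
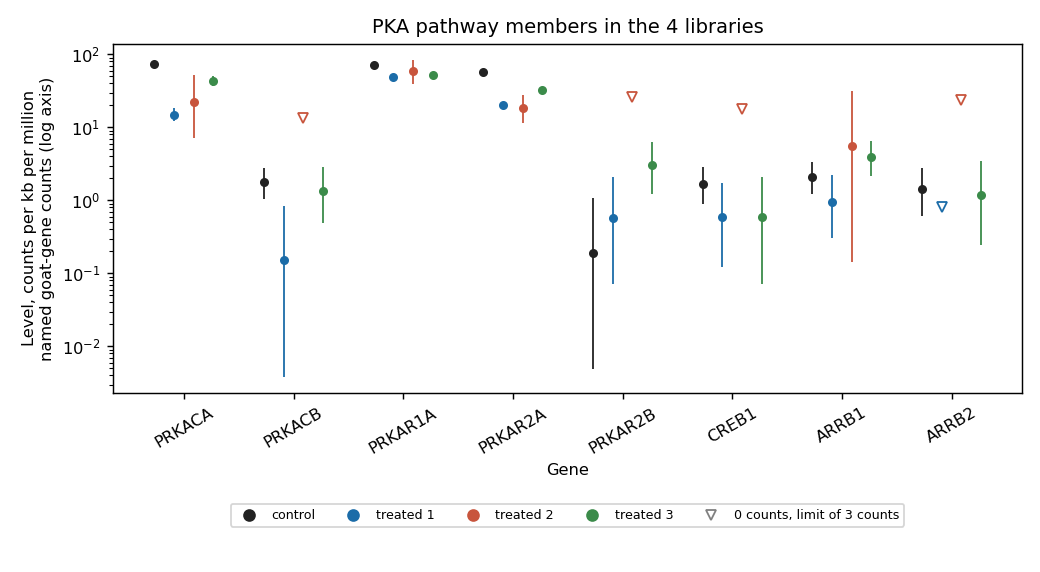
Level of the 8 members in each library, in CPM of named goat-gene counts per kilobase of unigene on a log axis. Points carry exact 95% Poisson intervals, and open triangles mark genes with 0 counts at the limit that 3 counts would give. PRKACA, PRKAR1A and PRKAR2A lie between 14.9 and 72.9 in all 4 libraries, and the other genes lie lower wherever they were counted in the control library and in treated libraries 1 and 3.

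When the 3 treated libraries were taken as replicates of a group, edgeR's quasi-likelihood test with Benjamini-Hochberg adjustment over 9470 goat genes called none of the 8 members, 1 of which had an unadjusted p under 0.05, beside 115 genes (1.21%) called in all, 66 lower and 49 higher, and 1164 genes with an unadjusted p under 0.05. The lone control library was assumed in this fit to vary like the treated ones. The log2 difference of treated against control was -1.13 for PRKACA (edgeR adjusted p = 0.580), -0.99 for PRKAR2A (edgeR adjusted p = 0.704) and -0.20 for PRKAR1A (edgeR adjusted p = 0.974). The smallest unadjusted p among the members was 0.0366, for PRKAR2B (log2 difference 3.11, edgeR adjusted p = 0.351). LOC102189140 had a log2 difference of 1.39 (edgeR adjusted p = 0.643). Without TMM factors the fit called 118 genes lower and 28 higher and the median log2 difference of all genes was -0.39 in place of -0.10, and PRKACA was at -1.41 (edgeR adjusted p = 0.297). DESeq2 called 4 genes in all and no member, and none had an unadjusted p under 0.05 among the members. It gave no adjusted p for PRKACB, PRKAR2B, CREB1, ARRB1 and ARRB2, so these could not be called.

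The rest of the pathway was followed on 8 lists with 104 listed symbols, of which 73 were in the pairing table and 63 had at least 10 counts. On named goat-gene counts 23, 7 and 23 of the 63 genes were lower and 3, 8 and 1 were higher in treated libraries 1, 2 and 3. These were 36.5%, 11.1% and 36.5% lower, beside 33.6%, 11.3% and 31.0% of all goat genes, and 4.76%, 12.7% and 1.59% higher, beside 5.52%, 7.41% and 2.64% of all goat genes. The lower shares were thus near those of all genes, and the shares of all genes apply to each list that follows. The median ratio was 0.752 and 0.634 in treated libraries 1 and 3, beside 0.737 and 0.712 for all goat genes. By all counts 32, 62 and 39 were lower and 2, 0 and 0 were higher, where 52.2%, 94.6% and 65.1% of all goat genes were lower. Older and newer symbols of a gene were both listed, so the number listed exceeds the number of genes.

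Among G protein subunits, 4, 0 and 3 of 14 genes were lower and 0, 2 and 1 were higher, or 28.6%, 0% and 21.4% lower beside 33.6%, 11.3% and 31.0% of all goat genes. GNB4, a beta subunit, had most counts of the list, with a control count of 353 and 174, 9 and 141 under treatment, and its ratios of 0.752, 1.16 and 0.901 were not called. Of the adenylyl cyclases and their associated proteins 3 of 7 were lower in each treated library and 0, 2 and 0 were higher. ADCY9, a cyclase that makes cyclic AMP, was lower in all 3 on both divisors, with a control count of 726 and counts of 59, 3 and 105 under treatment, at ratios of 0.124, 0.188 and 0.326. CAP2, a cyclase-associated actin-binding protein, had 2483, 1021, 6 and 501 counts and was lower in treated libraries 2 and 3 at ratios of 0.110 and 0.455, while its ratio in treated library 1 was 0.627.

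Only 2 receptor kinase genes could be tested. ADRBK2, which phosphorylates agonist-bound receptors, had 324, 107, 4 and 128 counts and was lower in treated library 1 at a ratio of 0.504, with ratios of 0.562 and 0.891 that were not called in the others. PKIA, a peptide inhibitor of the PKA catalytic subunits that is abundant in muscle, had 1393, 989, 17 and 449 counts, and its ratio was 1.08, 0.555 and 0.727, lower in treated library 2 only. It was 1 of 2 genes tested among the other PKA subunits and inhibitors. Of this list 0, 1 and 0 genes were lower and 1, 1 and 0 were higher. The other gene was PKIG, also a PKA inhibitor, with 17, 43, 3 and 22 counts. It was higher in treated libraries 1 and 2 at ratios of 3.86 and 8.03, and at 2.92, not called, in treated library 3. By all counts its ratios were 2.71, 0.205 and 1.65, called only in treated library 2, as lower.

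A-kinase anchoring proteins hold PKA at membranes and filaments, and 6, 1 and 5 of the 17 tested were lower and 1, 1 and 0 were higher. The lower shares of 35.3%, 5.88% and 29.4% stood beside 33.6%, 11.3% and 31.0% of all goat genes. SYNM, an intermediate filament protein that also anchors PKA, had most counts, 8854 in the control library against 2400, 29 and 1804 under treatment, and was lower in all 3 at ratios of 0.413, 0.149 and 0.460. AKAP12, a scaffold that binds PKA and the beta-2 receptor, went the other way, with a control count of 36 and counts of 263, 9 and 31 under treatment, and was higher in treated libraries 1 and 2 at ratios of 11.1 and 11.4 and at 1.94, not called, in treated library 3. By all counts it was higher in treated library 1 at 7.83 and lower in treated library 2 at 0.291. In treated library 2, where AKAP12 rested on 9 counts, the summed fibroblast markers were 2429 CPM against 124 in the control library, and their part in the result was not tested.

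Phosphodiesterases break down cyclic AMP, and of the 5 tested outside the PDE4 family 3, 1 and 4 were lower and none was higher in the 3 treated libraries. PDE8A had 396, 197, 1 and 69 counts and was lower in treated libraries 2 and 3 at ratios of 0.115 and 0.393, with a ratio of 0.759 in treated library 1. Of the 6 other cyclic AMP effectors 1, 0 and 2 were lower and 0, 1 and 0 were higher. POPDC3, a membrane protein of the Popeye family that binds cyclic AMP, had 382, 151, 4 and 119 counts and ratios of 0.603, 0.476 and 0.703, none of them called.

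Downstream of PKA, 5, 1 and 6 of the 10 genes tested of the CREB family and its coactivators were lower and 1, 1 and 0 were higher, beside 33.6%, 11.3% and 31.0% lower of all goat genes. CREBBP, the coactivator that binds phosphorylated CREB1, had 707, 344, 6 and 167 counts and was lower in treated libraries 2 and 3 at ratios of 0.386 and 0.533. CREM, a CREB relative whose short forms are induced by cyclic AMP, had a control count of 237 and counts of 1843, 11 and 120 under treatment. It was higher in treated library 1 at a ratio of 11.9 and was at 2.11 and 1.14, not called, in the others. By all counts these ratios were 8.33, 0.0540 and 0.647. CREM was among the genes that the study selected on these samples, so its direction is not independent evidence.

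**Figure D5:**
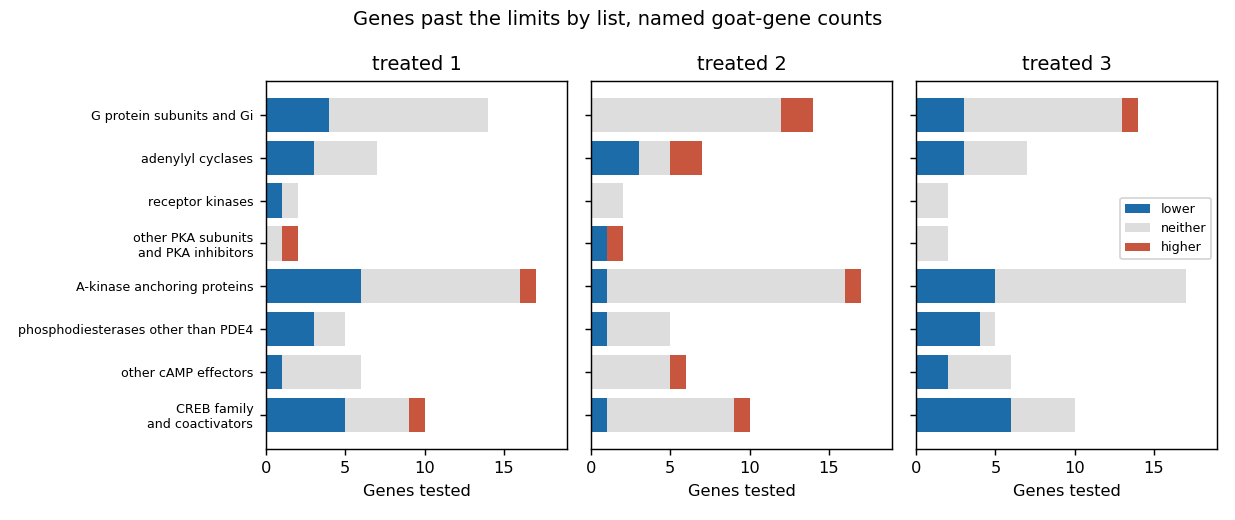
Number of genes tested in each of 8 pathway lists, split into lower, neither and higher than the control library on named goat-gene counts, in treated libraries 1, 2 and 3. The lists differ in size, and in treated libraries 1 and 3 the lower genes are 6 and 5 of 17 A-kinase anchoring proteins and 3 and 4 of 5 phosphodiesterases, where 33.6% and 31.0% of all goat genes were lower.

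PRKAR2A, as the member with most control counts, was compared with every goat gene of at least 100 control counts. Of 4006 genes counted in all 4 libraries, the 3 whose log2 ratios to control lay closest over the 3 treated libraries were ZBTB18, ARFGEF1 and TMEM129, with a largest difference of 0.05, 0.08 and 0.13. ZBTB18 had a control count of 294 and counts of 68, 2 and 75 under treatment. These patterns rest on 3 libraries that share 1 control library and on 1 or 2 counts in treated library 2 for these 3 genes. The PRKAR2A pattern, and its place as the member with most control counts, is that of its whole unigene. Reads of UBE2R2 cannot be told apart in it.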

How the data were processed

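Total RNA of goat longissimus muscle had been sequenced by the authors on an Illumina HiSeq, checked with FastQC 0.10.1 and assembled into unigenes, and the assembler, aligner and counter are not given in the sources used here. The authors deposited expected counts (whole numbers as deposited), TPM and FPKM per unigene and per transcript, percent identity of each unigene to a goat protein, and the unigene sequences. FPKM was not used, and the deposited TPM served an alternative only. Expected counts were summed per goat gene name. The 25 paired unigenes with no gene name (22.2%, 37.5%, 84.3% and 49.7% of counts in the control library and treated libraries 1, 2 and 3) were kept out of gene totals and tests. The members and lists were chosen with earlier results of these data known.

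Ratios to the control library used all counts or named goat-gene counts as divisor, with exact 95% Clopper-Pearson intervals conditional on the counts (scipy 1.17.1), limits of 3 and 0.6, and a floor of 3 counts for a count of 0. The group test was edgeR 4.0.16 (glmQLFit, glmQLFTest, TMM factors, at least 10 counts over 4 libraries, adjusted p below 0.05) in R 4.3.3, with DESeq2 1.42.0 as an alternative. Both steps were run on simulated data. The intervals were run on counting error alone, and the spread between libraries for edgeR was set below the fitted one. Apart from genes set to change, the simulated libraries shared 1 composition. These runs therefore cannot show how either step performs on libraries as uneven as these. Nothing in the labels says that the treated libraries came from separate animals, so p-values measure the spread between these libraries only. Reads were counted without molecular identifiers, so intervals and floors cover counting error only. Named pathway genes were, per list, the gene with most control counts and up to 4 genes called in the same direction in all 3 treated libraries, or higher in 1 or more, on both divisors. PKIG was named in addition, after its values were seen. Alternatives were other divisors, limits, unigene sums and units. No column of another series was present.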

Additional observations from a re-analysis of the deposited data

Results flagged for a closer look

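The 4 results given here come from unigenes outside the pairing table, which matched a member by nucleotide sequence only, and stood above the control library on named goat-gene counts. The PRKACA 3′ unigene had a ratio of 1.67 in treated library 1 and 1.81 in treated library 3. The 5 such CREB1 unigenes together had a ratio of 1.82 (1.10 to 3.03) in treated library 1. The 3 such ARRB1 unigenes had a ratio of 13 (1.32 to 68.3) in treated library 2, from 2 counts against 7 in the control library. Relative to all counts, the PRKACA ratios were 1.17 and 1.02, the CREB1 ratio was 1.28 and the ARRB1 ratio was 0.332.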

How the results depend on the processing

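ARRB1 in treated library 2 turned direction with the divisor. It was at 2.68, not called, on named goat-gene counts, 0.0684 by all counts and 0.0743 with the unnamed paired unigenes added. With unigenes matched by nucleotide sequence added, it was called higher at 5.69 (1.10 to 18.7) on named counts. That call rests on 3 counts against 24 in the control library. On named goat-gene counts, the 2 lower members of treated library 3 became 0 with TMM library sizes, with DESeq2 size factors and with limits of 2 and 0.5, and 4 with the unnamed paired unigenes in the divisor, a choice that gave 7 and 7 in treated libraries 1 and 2. Limits without the interval gave 6 lower in treated library 2 and 1 higher in treated library 1, and TPM gave 7 and 6 lower in treated libraries 1 and 2. Adding unigenes matched by nucleotide sequence, chosen after seeing the data like the unnamed divisor, gave 1 lower and 1 higher in treated library 2 and 1 lower in treated library 3. Leaving out treated replicate 1, 2 or 3 gave 2, 4 or 1 genes called by edgeR in place of 115 (range 1 to 4) and 0 members in each case, and DESeq2 called 4. The edgeR fits without treated replicate 1, 2 or 3 tested only 7, 8 and 6 members. PRKAR2B dropped out without replicate 1 or 3, and ARRB2 without replicate 3. Over the leave-one-out medians, PRKACA was between 0.255 and 0.449, PRKAR1A between 0.708 and 0.778 and PRKAR2A between 0.339 and 0.464. The causes were not tested. Leaving out the mitochondrial genome removed only 3 named unigenes. No paired analysis was possible because the control and treated libraries share only 1 replicate number. With 1 control library no spread among controls could be measured, and at the depth of treated library 2 the 5 rare members could not be compared.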
